A study of Rattus norvegicus with 4 samples.

Results

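The Hippo pathway genes described here were 10 genes chosen by name: the coactivators Yap1 and Wwtr1 (TAZ), the transcription factor Tead1, the kinases Stk3 (MST2), Lats1 and Lats2, the junctional protein Amotl2, and the target genes Ccn2 (Ctgf), Ccn1 (Cyr61) and Ankrd1. All 10 were found by symbol among the 23360 genes of the deposited tables. The libraries were made from messenger RNA of INS-1 832/3 cells, a single rat insulinoma line that secretes insulin, carries a human insulin gene and was kept under Geneticin selection in both groups. The 2D group was grown as a standard monolayer and the 3D group was bioprinted as grids in GelXA LAMININK 411, a gelatin methacrylate hydrogel blended with laminin-411. Each group held 2 cultures, harvested after 5 days at passage 3.

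In the Hippo pathway, MST kinases with the scaffold SAV1 activate LATS kinases with their MOB1 adaptors, and LATS phosphorylates YAP and TAZ, which keeps them out of the nucleus. Unphosphorylated YAP and TAZ enter the nucleus, bind TEAD factors and switch on genes such as Ccn1, Ccn2 and Ankrd1. The pathway is known to read cell density, cell shape and matrix stiffness, and YAP is known to be shut off when endocrine cells of the pancreas differentiate.

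Values are TPM, shares of all transcripts in a library that are scaled for transcript length and sum to 1000000, so levels of different genes can be set side by side. TPM keep no read counts, so no counting error was computed and precision rests on the 2 cultures of each group. TPM were summed per gene, and the 11960 genes with a mean of at least 1 TPM, 51.2% of those listed, were tested with limma on log2(TPM + 1) after scaling between samples. The log2 fold change of 3D over 2D (log2FC) on this scale is smaller than the true one for genes at low TPM. In exact permutation tests, 2 cultures per group allow no two-sided p below 0.333. Calls therefore lean on a spread estimated over all genes, which limma combines with each gene's own. Fits that leave out 1 culture have 1 sample in a group, and without a 3D culture far fewer of all genes are called. A call lost there is not particular to the gene. Of all genes tested, 38% had an adjusted p below 0.05, 18.5% higher and 19.5% lower in 3D. The TPM of the 2 groups did not overlap for 74.2% of all genes tested, so non-overlap of a single gene is common here. In these bulk samples, fewer cells of a type and less RNA per cell cannot be told apart. All 10 beta-cell markers examined were expressed in every culture, summing to 147297 and 160244 TPM in 2D and 157518 and 170182 TPM in 3D, most of it Ins1. Of these 10, Slc2a2 rose (log2FC 0.39, limma adjusted p = 0.0075), Ins2 fell (log2FC -0.58, limma adjusted p = 0.0095) and 8 did not pass the threshold. In a fit with no filter on low values the call of Ins2 was lost (limma adjusted p = 0.0714) and that of Slc2a2 was kept (0.0209).

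Tead1, Lats1, Lats2 and Stk3 were above 1 TPM in all 4 cultures and were tested. Of the other 6 genes, Yap1 and Ankrd1 were listed at 0 and Wwtr1, Amotl2, Ccn2 and Ccn1 were below 1 TPM in every culture of both groups. Summed, the genes with a value above 0 among them had 0.756 and 0.751 TPM in the 2D cultures and 0.464 and 0.621 TPM in the 3D cultures, whereas Lats1, Lats2 and Stk3 together had 33.1 and 29.1 TPM in 2D and 34.7 and 33.3 TPM in 3D. Of the 4 tested genes, Tead1 and Lats1 rose in 3D, Stk3 fell and Lats2 did not pass the threshold (limma, adjusted p below 0.05), so that 3 of 4 were called where 38% of all genes were. The plot of the 10 genes by culture shows these levels.

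**Figure D1:**
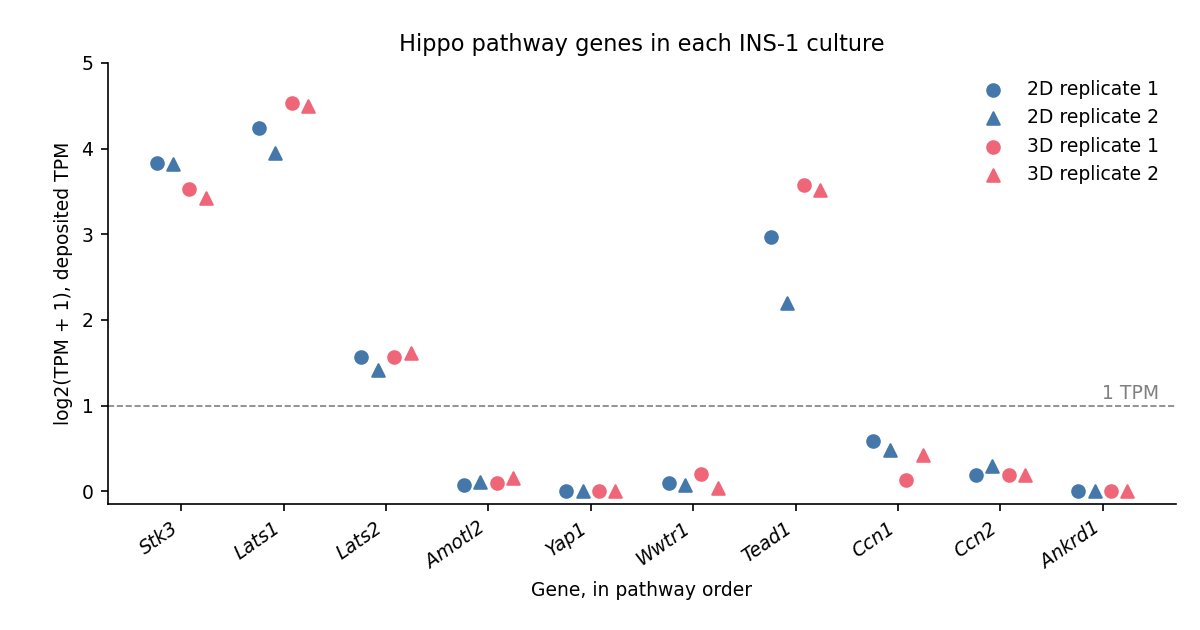
Deposited TPM of the 10 Hippo pathway genes, plotted as log2(TPM + 1) with 1 point per culture (blue 2D, red 3D, circles replicate 1, triangles replicate 2) and a dashed line at 1 TPM. Stk3, Lats1, Lats2 and Tead1 lie above the line in all 4 cultures and the other 6 genes lie below it in all 4.

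Among the coactivators, Yap1 was listed with 5 transcripts, each of which was listed at 0 in all 4 cultures. Such a 0 cannot be read as absence, since 4 of 38 genes that every cell uses (Actg1, Rpl9, Rpl13 and Rps29) were also listed at 0 in all 4 cultures. Wwtr1, which encodes TAZ, was listed with a single transcript and had 0.0672 and 0.0488 TPM in 2D and 0.153 and 0.0263 TPM in 3D. The 3D cultures of Wwtr1 lay on both sides of the 2D cultures, and in a fit with no filter on low values its adjusted p was 0.733 in limma.

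Tead1 encodes a DNA-binding partner of YAP and TAZ and of the competing cofactor VGLL4. It had 6.85 and 3.60 TPM in the 2D cultures and 10.9 and 10.4 TPM in the 3D cultures. The 3D cultures lay close together and above both 2D cultures, which were far apart. Its mean rose from 5.23 ± 2.29 TPM in 2D (SD, n = 2) to 10.7 ± 0.336 TPM in 3D (SD, n = 2), or by a log2FC of 0.92 (SE 0.23, 95% interval 0.36 to 1.49, limma adjusted p = 0.0277). Both transcripts listed for Tead1 were higher in both 3D cultures than in either 2D culture. ENSRNOT00000021020.4 had 2.93 and 1.83 TPM in 2D and 5.52 and 5.46 TPM in 3D, and ENSRNOT00000090042.1 had 3.91 and 1.78 TPM in 2D and 5.40 and 4.99 TPM in 3D. The size of the rise depended on both 2D cultures, with a log2FC of 0.57 without 2D replicate 2 and 1.27 without 2D replicate 1. The call was lost without 3D replicate 1 (limma adjusted p = 0.144), without 3D replicate 2 (0.113), with no filter on low values (0.0796) and when only the more abundant transcript of each gene was tested (0.0851).

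Tead1 had the highest level in each culture among the 3 TEAD genes with a value above 0, Tead2 being listed at 0. Of 7 other TEAD and VGLL genes, 6 were found and 2 passed the filter, 1 of which rose, where 38% of all genes were called. Of the summed TPM of the 3 TEAD genes with a value above 0, Tead1 made up 86.2% and 74.1% in 2D and 89.6% and 88.2% in 3D. Tead3 had 1.09 and 1.23 TPM in 2D and 1.19 and 1.37 TPM in 3D, ranges that overlapped (log2FC 0.06, 95% interval -0.28 to 0.39, limma adjusted p = 0.758), and its sign turned to -0.01 without 2D replicate 1. Tead4 stayed at or below 0.0770 TPM in all 4 cultures. Vgll4, whose product competes with YAP for TEAD factors, had 28.1 and 31.9 TPM in 2D and 47.5 and 45.5 TPM in 3D, and both 3D cultures were above both 2D cultures. Its log2FC was 0.57 (SE 0.09, limma adjusted p = 0.0101), and the call was lost without 3D replicate 1 (0.0906) or 3D replicate 2 (0.0601). Vgll2 and Vgll3 had at most 0.127 TPM in any culture.

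Among the kinases, Lats1 was the most abundant of the 10 genes. LATS1 is the kinase that phosphorylates YAP and TAZ, and its gene had 17.9 and 14.4 TPM in 2D and 22.2 and 21.5 TPM in 3D. The ranges did not overlap, which was also the case for 74.2% of all genes tested. Lats1 rose from 16.2 ± 2.49 TPM in 2D (SD, n = 2) to 21.9 ± 0.487 TPM in 3D (SD, n = 2), or by a log2FC of 0.38 (SE 0.09, 95% interval 0.15 to 0.61, limma adjusted p = 0.0271). The adjusted p was 0.0557 without 2D replicate 2, 0.162 without 3D replicate 1, 0.111 without 3D replicate 2 and 0.0738 with no filter on low values.

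Its paralog Lats2, which is both a kinase of the pathway and a known target of YAP, was much lower, with 1.95 and 1.66 TPM in 2D and 1.96 and 2.05 TPM in 3D. The 3D cultures were just above the 2D cultures, by less than the spread of the latter. The log2FC of Lats2 was 0.07, with a 95% interval from -0.21 to 0.36 (limma adjusted p = 0.637). Lats1 exceeded Lats2 by 9.17 and 8.67 times in the 2D cultures and by 11.3 and 10.5 times in the 3D cultures.

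Stk3 encodes MST2, an activator of the LATS kinases, and moved the other way from Lats1. It had 13.3 and 13.1 TPM in 2D and 10.5 and 9.76 TPM in 3D, and both 3D cultures were below both 2D cultures. Stk3 fell from 13.2 ± 0.132 TPM in 2D (SD, n = 2) to 10.2 ± 0.553 TPM in 3D (SD, n = 2), a log2FC of -0.39 (SE 0.08, 95% interval -0.58 to -0.20, limma adjusted p = 0.0155). The call held under each alternative scaling, filter and pseudocount, and was lost without 2D replicate 2 (limma adjusted p = 0.0506), 3D replicate 1 (0.0840) or 3D replicate 2 (0.109). The paralog Stk4 (MST1) had 12.4 and 11.7 TPM in 2D and 11.3 and 12.4 TPM in 3D, with overlapping ranges and a log2FC of -0.07 (95% interval -0.25 to 0.11, limma adjusted p = 0.489). The ratio of Stk3 to Stk4, which does not depend on scaling between samples, was 1.07 and 1.12 in 2D and 0.934 and 0.788 in 3D.

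**Figure D2:**
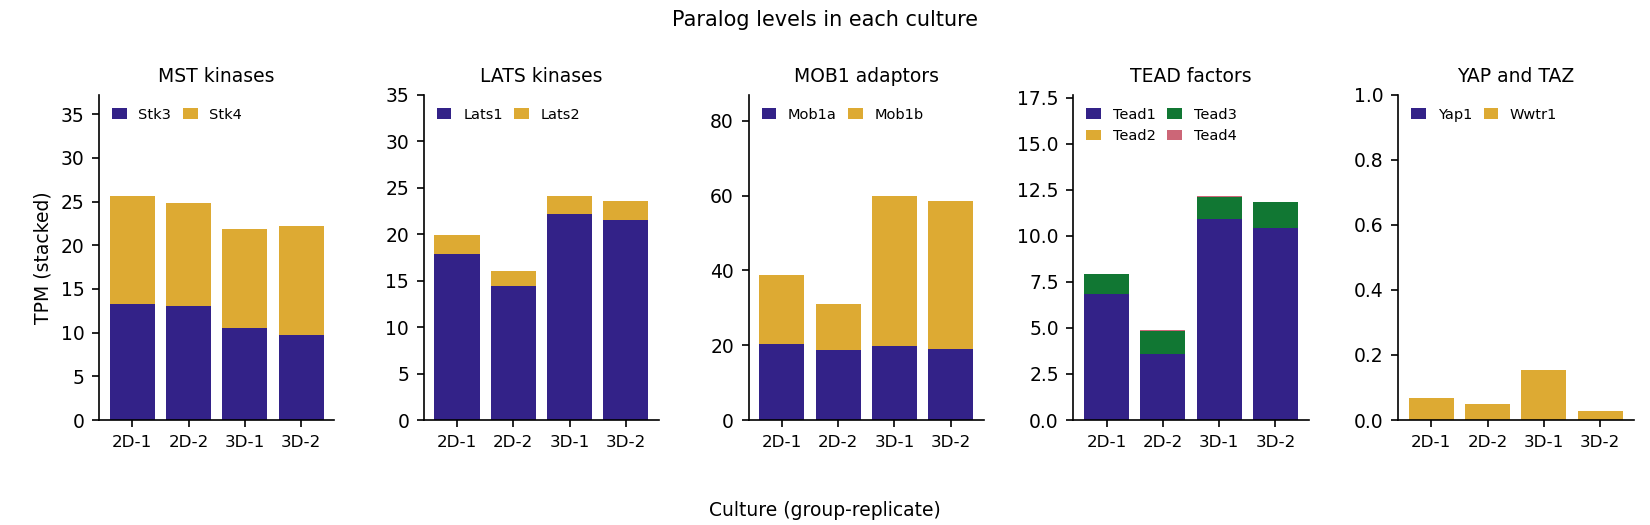
Deposited TPM of the genes of 5 Hippo protein families, stacked in 1 bar per culture (labelled by group and replicate), with a separate linear axis from 0 for each family. Mob1b and Tead1 are taller in both 3D cultures, Mob1a and Stk4 overlap between the groups, and the YAP and TAZ bars stay below 0.2 TPM.

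The 4 remaining genes of the list stand for the output of the pathway, and none of them was near 1 TPM. Amotl2, a junctional protein that binds YAP and is itself a YAP target, had 0.0485 and 0.0793 TPM in 2D and 0.0688 and 0.114 TPM in 3D. Its ranges overlapped and its adjusted p in the fit with no filter was 0.636 in limma. Ccn2, which encodes the matricellular protein CTGF, had 0.135 and 0.229 TPM in 2D and 0.144 and 0.141 TPM in 3D. Both 3D cultures of Ccn2 lay between the 2D cultures (limma adjusted p = 0.488 with no filter). Ccn1, which encodes the related protein CYR61, had 0.505 and 0.394 TPM in 2D and 0.0986 and 0.339 TPM in 3D. Both 3D cultures of Ccn1 were below both 2D cultures, but they differed from each other by more than the higher of them differed from the 2D cultures, and the adjusted p with no filter was 0.145 in limma. In that fit, 22.3% of 16749 genes were called. Ankrd1, a muscle ankyrin repeat protein and a target of YAP in many cells, was listed at 0 in all 4 cultures with its single transcript.

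Promoter sequences are shown for 3 of these target genes because TEAD factors bind the letters GGAATG, which read CATTCC on the opposite strand, the element through which YAP and TAZ reach them. RefSeq promoters (build GRCr8) were matched by symbol for 6 of the 10 genes, and the 250 bases before each start site were searched on both strands. At least 1 copy was found in 12.1% of all 33469 promoters, and 3 or more in 0.0807% of them. Ccn2 held 3 copies, starting 166, 101 and 92 bases before the start site, Ccn1 held 1 at 113 bases and Amotl2 held 1 at 76 bases. The Yap1 promoter also held 1 copy, at 116 bases, and those of Lats1 and Wwtr1 held none in this window. The promoter of Ccn2 (chr1:22624615-22624864, minus strand), that of Ccn1 (chr2:237225690-237225939, minus strand) and 30 bases of that of Amotl2 (chr8:112182538-112182567, plus strand) are given with the motif in capitals.
Ccn2: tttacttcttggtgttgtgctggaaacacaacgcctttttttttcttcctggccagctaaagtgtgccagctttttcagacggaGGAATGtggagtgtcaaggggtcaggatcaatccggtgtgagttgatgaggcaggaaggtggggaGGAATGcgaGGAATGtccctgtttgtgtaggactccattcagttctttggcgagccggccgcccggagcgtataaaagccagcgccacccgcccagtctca
Ccn1: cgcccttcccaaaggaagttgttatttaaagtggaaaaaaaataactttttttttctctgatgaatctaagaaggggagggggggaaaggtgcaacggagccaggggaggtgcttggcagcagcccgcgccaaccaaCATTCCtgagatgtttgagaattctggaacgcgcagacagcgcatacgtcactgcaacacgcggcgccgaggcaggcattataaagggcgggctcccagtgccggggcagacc
Amotl2: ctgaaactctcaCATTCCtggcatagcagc
These matches are a description of the letters in the window. Ccn2, with the most copies, had at most 0.229 TPM in any culture.

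The other components of the pathway were read from lists written by gene function. Of 12 further kinases and adaptors, all 12 were tested, 5 rose, none fell and 7 did not pass the threshold. The share called was 41.7%, near the 38% of all genes, and their median log2 fold change was 0.18 against -0.003 over all genes tested. Mob1b, which encodes an adaptor and coactivator of LATS, had 18.5 and 12.2 TPM in 2D and 40.2 and 39.6 TPM in 3D. Both 3D cultures were above both 2D cultures, at a log2FC of 1.31 (SE 0.16, limma adjusted p = 0.0055). Without 3D replicate 1 its limma adjusted p was 0.0624. Its paralog Mob1a had 20.4 and 18.7 TPM in 2D and 19.8 and 18.9 TPM in 3D (log2FC -0.05, 95% interval -0.22 to 0.11, limma adjusted p = 0.538). The share of Mob1b in the sum of both was 47.6% and 39.5% in 2D and 67.0% and 67.7% in 3D, so that the more abundant MOB1 gene was Mob1a in 2D and Mob1b in 3D.

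Taok1, which encodes a kinase that activates MST, had 15.9 and 12.2 TPM in 2D and 21.2 and 20.4 TPM in 3D, with no overlap between the groups (log2FC 0.50, limma adjusted p = 0.0201). Stk38 encodes NDR1, a kinase related to LATS, and had a log2FC of 0.24 (limma adjusted p = 0.0220), but tested on its more abundant transcript alone it had one of -0.22 (adjusted p = 0.107). The other 2 that rose were Tnik (log2FC 0.46, limma adjusted p = 0.0362) and Mink1 (0.22, 0.0326), kinases that act on LATS beside MST. Without 3D replicate 1, and likewise without 3D replicate 2, none of Taok1, Stk38, Tnik and Mink1 passed the threshold, with limma adjusted p between 0.0915 and 0.183. Without 2D replicate 2, Stk38 (0.05005), Tnik (0.0560) and Mink1 (0.0581) were lost, and Mink1 was also lost without 2D replicate 1 (0.0581). The log2FC of Tnik was 0.29 without 2D replicate 2. With no filter on low values the limma adjusted p was 0.0607 for Taok1, 0.0986 for Tnik and 0.0574 for Mink1. Tnik was also lost without scaling (0.0503), and Mink1 without a trend (0.05005) and on its most abundant transcript (0.183). Sav1, the scaffold of the MST kinases, had 7.37 and 6.25 TPM in 2D and 6.79 and 7.24 TPM in 3D, with a log2FC of 0.004 and an interval from -0.22 to 0.22 (limma adjusted p = 0.975).

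Of 18 upstream and junctional regulators, 12 passed the filter. Of these 12, 1 rose, 2 fell and 9 did not pass the threshold, or 25% called against 38% of all genes. Fat1, an atypical cadherin, had 20.3 and 16.3 TPM in 2D and 26.8 and 25.0 TPM in 3D (log2FC 0.45, limma adjusted p = 0.0193), and both 3D cultures were above both 2D cultures. Rassf1, a scaffold that binds the MST kinases, had 8.23 and 8.80 TPM in 2D and 5.93 and 6.91 TPM in 3D (log2FC -0.40, limma adjusted p = 0.0295). Without 3D replicate 1 the limma adjusted p was 0.135 for Fat1 and 0.176 for Rassf1, and without 3D replicate 2 it was 0.0773 and 0.0790. Rassf1 was also lost without 2D replicate 2 (0.0992). With no filter on low values both were lost, at 0.0569 for Fat1 and 0.0582 for Rassf1, and on its most abundant transcript Fat1 had a log2FC of 0.27 (limma adjusted p = 0.0331). Nf2, which encodes Merlin and brings LATS to the membrane, had 45.5 and 41.9 TPM in 2D and 40.0 and 38.4 TPM in 3D. The ranges of Nf2 did not overlap, and its log2FC of -0.19 had an adjusted p of 0.0507 in limma, or 0.0446 with no filter on low values. Within the angiomotin family, Amot was expressed at 2.91 and 2.50 TPM in 2D and 2.02 and 2.46 TPM in 3D, whereas Amotl1 was listed at 0.

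The next list held 15 genes of LATS inhibitors, degradation and the STRIPAK phosphatase complex, which acts against MST. Of these, 14 were found, 13 were tested and 2 were called, or 15.4% against 38% of all genes. Strn3, a regulatory subunit of STRIPAK, had 11.7 and 9.92 TPM in 2D and 15.3 and 14.4 TPM in 3D (log2FC 0.38, limma adjusted p = 0.0214). Ppp2r1a, the scaffold subunit of the phosphatase, had 237 and 226 TPM in 2D and 204 and 202 TPM in 3D (log2FC -0.23, limma adjusted p = 0.0218). Neither gene overlapped between the groups, but non-overlap was found for 10 of the 13 tested genes of this list and 74.2% of all genes tested. The limma adjusted p was 0.151 for Strn3 and 0.130 for Ppp2r1a without 3D replicate 1, 0.0851 and 0.147 without 3D replicate 2, and 0.0617 for Strn3 without 2D replicate 2. Strn3 was also lost with no filter on low values (0.0604) and on its most abundant transcript (0.0665). The lists of kinases, TEAD and VGLL factors, upstream regulators and LATS inhibitors together held 39 tested genes, 8 of which rose and 3 fell, or 28.2% called against 38% of all genes.

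**Figure D3:**
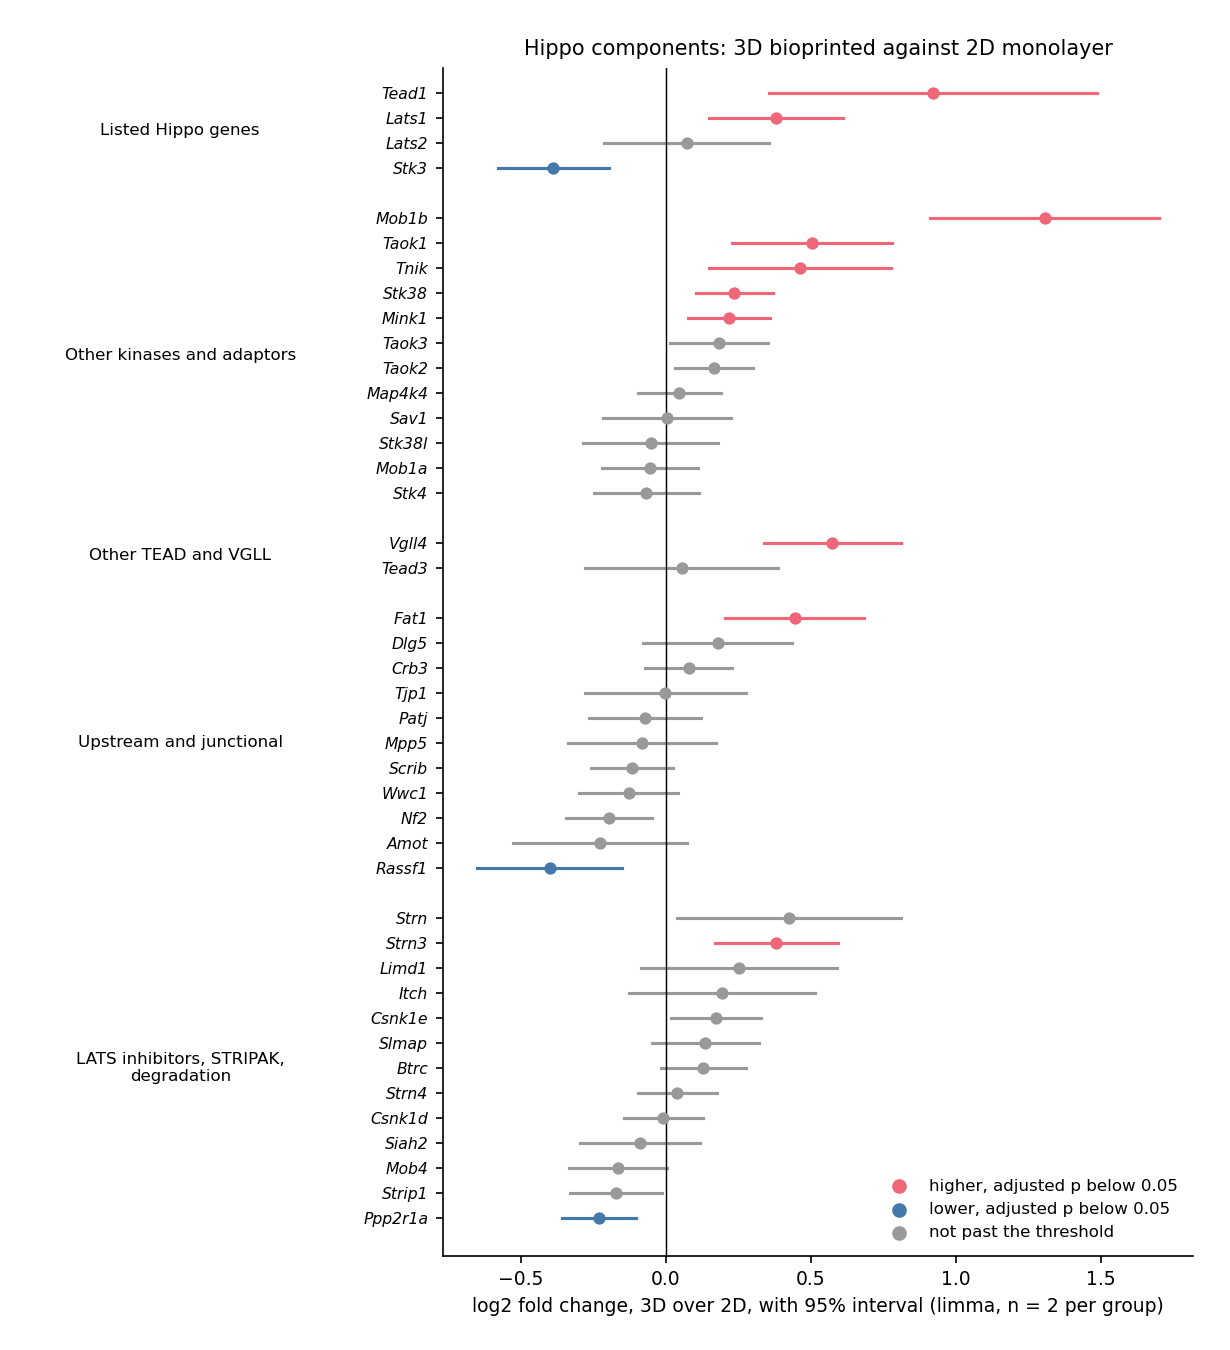
Log2 fold change (3D over 2D) with its 95% interval from limma for the 4 tested genes of the list and 38 of the 39 tested genes of the 4 lists of other Hippo components, with n = 2 cultures per group. Mob1b, Tead1 and Vgll4 lie farthest to the right, and Rassf1 and Stk3 farthest to the left.

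Besides the 4 target genes of the list, 17 further genes known as YAP, TAZ and TEAD targets in other cells were examined. Of these, 16 were found and 10 passed the filter, with 3 higher, 1 lower and 6 not past the threshold. The share called was 40%, against 38% of all genes, but it counts Tgfb2 and Nuak2 and is not read as a result. Of those called, Tgfb2 passed the filter only through its 3D values and Nuak2 only through its 2D values, so both had to differ and are given as a description. Tgfb2, a TGF-beta ligand, had 0.100 and 0.151 TPM in 2D and 8.53 and 5.16 TPM in 3D. Nt5e, the ectonucleotidase CD73, had 3.41 and 2.71 TPM in 2D and 5.84 and 6.34 TPM in 3D (log2FC 0.77, limma adjusted p = 0.0069). Asap1, a regulator of ARF proteins, had 46.2 and 40.5 TPM in 2D and 53.8 and 54.8 TPM in 3D (log2FC 0.28, limma adjusted p = 0.0221). Nuak2, a kinase of the AMPK family, had 1.75 and 1.81 TPM in 2D and 0.798 and 0.743 TPM in 3D. The limma adjusted p of Nt5e and Asap1 was 0.0647 and 0.137 without 3D replicate 1 and 0.0545 and 0.123 without 3D replicate 2, and that of Asap1 was 0.0504 without 2D replicate 2. Asap1 was also lost with no filter on low values (0.0505) and on its most abundant transcript (0.0989). Of the genes below the filter, Myof, Axl and Ptpn14 had at most 0.111 TPM in any culture and Rbms3 was listed at 0.

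Ccn1 and Ccn2 are also known targets of serum response factor (SRF) and its actin-regulated cofactors, so genes of that pathway were read beside them. Of 15 genes, 8 passed the filter and 0 had an adjusted p below 0.05 in limma, against 38% of all genes tested. An unadjusted p below 0.05 in limma was found for 3 of the 8, and for 6057 of all 11960 genes tested. Srf had 17.6 and 17.3 TPM in 2D and 18.1 and 18.5 TPM in 3D (log2FC 0.02, 95% interval -0.13 to 0.17), and Mrtfa 7.29 and 6.30 TPM in 2D and 6.68 and 7.27 TPM in 3D. Acta2, Tagln, Myl9, Cnn1 and Cnn2, smooth muscle and contractile genes, were at or below 0.181 TPM in every culture. The other 4 CCN genes were all below the filter, with at most 0.219 TPM (Ccn3).

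**Figure D4:**
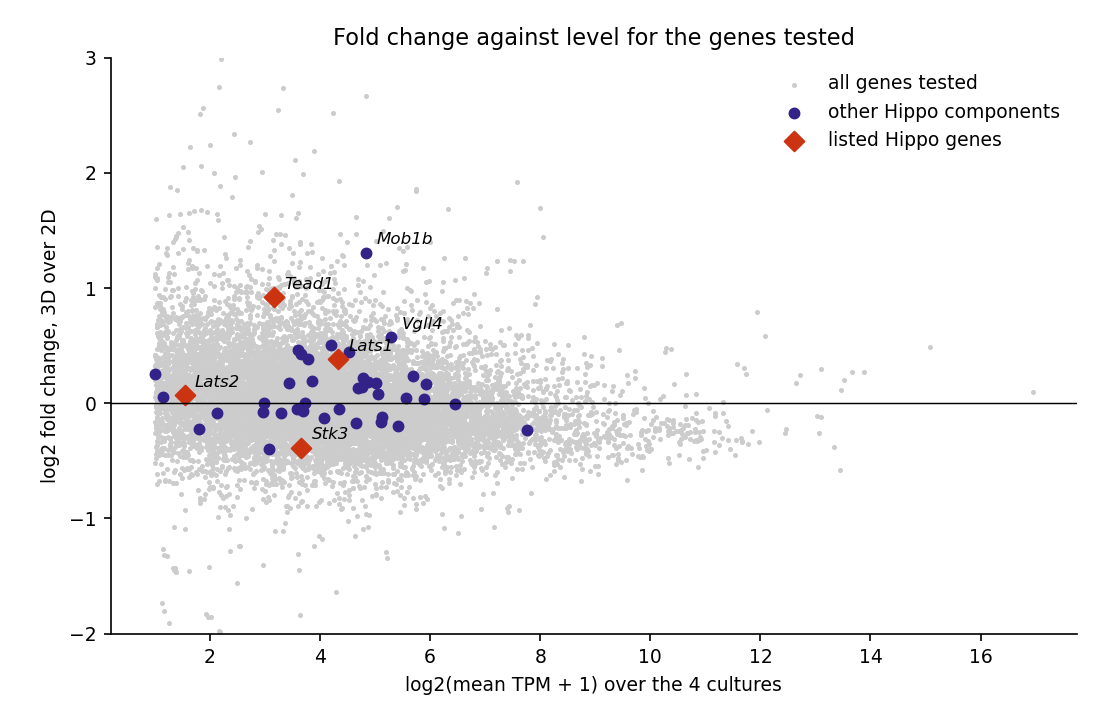
Log2 fold change (3D over 2D) against log2(mean TPM + 1) over the 4 cultures for the 11960 genes tested (grey), 38 of the 39 other Hippo components (blue) and the 4 tested genes of the list (red), with 10 genes outside the vertical range not drawn. Stk3, Lats1 and Lats2 lie within the cloud of genes of similar level, and Mob1b and Tead1 lie near its upper edge.

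The 2D cultures differed from each other at several of the genes that rose. After scaling, the difference of 2D replicate 2 from 2D replicate 1 on the log2 scale was -0.71 for Tead1, -0.49 for Mob1b, -0.30 for Taok1, -0.23 for Lats1 and -0.23 for Fat1. For Stk3 it was 0.05. Its median over all genes tested was 0.008, a signed value that does not show how large the differences of single genes are. Vgll4, which also rose, went the other way, with 28.1 and 31.9 TPM in 2D replicates 1 and 2. Between the 3D cultures the difference was -0.08 for Tead1 and -0.04 for Mob1b. The part of this difference in the results was not tested, and the values without each culture are those given beside the genes.

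By the distance between log2(TPM + 1) profiles over the 4 samples, among genes with a mean of at least 10 TPM, the genes most like Tead1 were Lrrc58 (distance 0.0550), Mib1 (0.0644) and Cpeb4 (0.0731). Lrrc58 had 21.6 and 12.4 TPM in 2D and 34.3 and 33.7 TPM in 3D. Its low 2D replicate 2, like that of Tead1, follows from this choice by profile. Those most like Ccn1 were Pde4c (0.0152), Slc36a1 (0.0210) and Dnajb9 (0.0288). Ccn1, below 1 TPM, is flattened on this scale. It ran from 0.505 to 0.0986 TPM over the 4 samples, and Pde4c from 16.8 to 12.1 TPM. Yap1, at 0 in all 4 samples, has no profile to compare, and the genes nearest to it (Prdx4, Ogdhl and Plekhh3) are those that varied least.

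Because YAP and its targets are high in other cells of the pancreas, markers of those cells were read in the same libraries. Of 7 fibroblast and stellate cell markers found, Pdgfrb, Dcn and Lum were listed at 0 in all 4 cultures and Col1a1 had at most 0.0198 TPM. The list summed to 211 and 214 TPM in 2D and 180.0 and 211 TPM in 3D, nearly all of it Thy1, and to between 1.89 and 2.35 TPM without Thy1. Of 5 endothelial markers found, Cdh5 and Cldn5 were listed at 0 and the sum was 1.08 and 1.15 TPM in 2D and 1.40 and 1.68 TPM in 3D. The 6 duct markers summed to 16.6 and 19.6 TPM in 2D and 22.9 and 20.8 TPM in 3D, mostly Krt7, with Cftr at 0. The 5 leukocyte markers summed to between 0.562 and 1.49 TPM, with Ptprc and Aif1 at 0. Among the 4 genes of these lists that passed the filter, 0 had a limma adjusted p below 0.05, against 38% of all genes tested. An unadjusted p below 0.05 in limma was found for 0 of the 4, and for 6057 of all 11960 genes tested.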

How the data were processed

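The 10 genes and the gene lists were chosen with earlier results of these data known. The authors sequenced stranded polyA libraries as 75-bp single-end reads and checked them with FastQC 0.11.8. Transcripts were quantified in Salmon 1.2, using rat build rn4 plus the human insulin gene. The transcripts carry versioned Ensembl identifiers, whose annotation release is not given in the sources used here. They deposited TPM with decimal commas, normalized for transcript length and summing to 1000000 in each sample. The methods name a read number per sample, but TPM carry no reads per gene, so no count test, interval or detection limit was computed and the study's DESeq2 step was not repeated.

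TPM were summed per symbol (31201 transcripts, 23360 genes). The 11960 genes averaging 1 TPM or more were scaled with unweighted TMM factors (M trimmed by 30%, A by 5%, on both sides). They were tested on log2(TPM + 1) in limma 3.58.1, with culture as the only term and a trend in the variance prior, in R 4.3.3, with Benjamini-Hochberg adjustment over all of them. Ccn2 and Ccn1 are the symbols the files use for Ctgf and Cyr61. Older symbols were tried for list genes, and 4 of 83 were not found. All 10 listed genes are named. In the other pathway lists the 3 smallest p in each direction past the threshold were named, with the TEAD genes, Stk4, Sav1, Mob1a, Mob1b and Nf2, and further genes were named after their values were seen, as was the profile of Tead1. A result for 1 gene that the rule names is not reported here. Promoters were taken from RefSeq.

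The steps were run on simulated TPM with 200 changed genes among 11857 tested. They called 37.9% of genes changed by 0.5 on the log2 scale, 82.1% of those changed by 1 and 97.0% of those changed by 2. Of the calls, 5.23% were of unchanged genes. In the data 38% of genes were called, a far larger share than was changed here. The simulated errors were drawn independently from the variance prior that limma fitted. These shares check the steps and are no estimate of power or false calls in the data. Alternatives were the scaling, the filter, the pseudocount, the empirical Bayes trend, the replicate block, the threshold, the most abundant transcript and each culture left out. The methods of the study call the 2 cultures of a group biological replicates.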

Additional observations from a re-analysis of the deposited data

How the results depend on the processing

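Tead1, Lats1 and Stk3 kept their direction over 14 alternatives and Lats2 over 13, as it did not pass a filter of 5 TPM. With no filter on low values, 8 of the 10 genes were tested in place of 4, and 1 (Stk3) was called in place of 3. In that fit 22.3% of 16749 genes were called. The log2 fold changes of Tead1 and Lats1 there, 0.89 and 0.35, no longer passed the threshold. On the most abundant transcript, that of Tead1 was 0.72 and did not pass. At an adjusted p below 0.01, 0 of the 4 tested genes of the list passed, and 3 of them had an unadjusted p below 0.05 in limma. The log2 fold changes of those 3 were 0.92 for Tead1, 0.38 for Lats1 and -0.39 for Stk3. At this threshold 3 of the 57 tested genes of the 6 pathway lists passed in place of 15, and 1418 of all 11960 genes in place of 4541.

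With each culture left out in turn, a fit in which a lone sample is assumed to vary like the other group, between 0 and 3 of the 10 genes were called, between 1 and 19 genes of the pathway lists, and between 136 and 4515 of all genes. No gene of the list was called without 3D replicate 1 or without 3D replicate 2, where 2 and 3 of them had an unadjusted p below 0.05 in limma, and fewer calls across all genes were made in these fits as well. The log2 fold changes ran from 0.57 to 1.27 for Tead1, from 0.26 to 0.49 for Lats1, from 0.02 to 0.12 for Lats2 and from -0.45 to -0.32 for Stk3. Sav1 changed sign, to -0.028 with no filter and, with cultures left out, over a range from -0.070 to 0.073, Tead3 to -0.014 without 2D replicate 1 (range up to 0.12), and Stk38 to -0.22 on its most abundant transcript. The cause was not tested.

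The shared replicate numbers were not taken as a pairing: across genes, the deviations of the 2D and 3D cultures of one number correlated at -0.006. With the replicate number as a block, 3 of the 4 tested genes of the list were called. In that fit 16 of the 57 tested genes of the pathway lists and 4814 of all 11960 genes were called. Without scaling between samples, the median log2 fold change of all genes was 0.04. TPM carry no reads per gene, so no detection limit was computed for the 6 genes below 1 TPM.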
